A study of Mus musculus with 4 samples.

Results

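The Ly6 genes described here are Ly6a, Ly6c1, Ly6c2, Ly6e and Ly6d, 5 of the 31253 genes counted in each library. They were picked by symbol as the surface-antigen genes of the mouse Ly6 cluster that include Ly6a, the gene of Sca-1 (stem cell antigen-1). The choice was made with their levels in these libraries known, so every level and ratio below is a description and none is tested. The cells came from CT26 tumours, which grow from a mouse colon carcinoma line, and from the tumour-draining lymph nodes (TDLN) of female mice aged 4 to 8 weeks. NanoCa is, per the series title, a lipid nanoparticle with an unusual calcium crystal structure, made for immunotherapy through interferon beta. There were 4 groups with 1 library each, NanoCa and mock for the tumour and NanoCa and mock for TDLN. Mock libraries are tagged as having had no treatment, while the protocol text on all 4 mentions NanoCa, and this conflict bears on each NanoCa to mock ratio. The strain, the dose, the number of mice per library and the gate of the CD45 sort were not stated in the labels.

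Ly6 proteins are small, cysteine-rich proteins that fold into a three-fingered domain and are held on the outer cell membrane by a glycosylphosphatidylinositol (GPI) anchor. In the mouse they serve as lineage and activation markers: Sca-1 marks blood stem cells, many mesenchymal cells and activated lymphocytes, Ly-6C marks inflammatory monocytes and memory CD8 T cells, and Ly-6D marks cells committed to the B lineage. Interferons are known inducers of Ly6a and Ly6e.

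The libraries held 167924801 and 148121144 UMIs (NanoCa and mock) in the tumour and 74909974 and 106579362 in TDLN, where a UMI is 1 counted RNA molecule. After filters on genes, mitochondrial UMIs and doublets, 10209 and 8592 tumour cells and 10043 and 9425 TDLN cells remained. Between 121 and 183 barcodes were shared by any pair of libraries, at most 1.65% of the smaller one. Clusters were built and named without any Ly6 gene. The most numerous tumour cells, 6788 with NanoCa and 5839 with mock, had neither Ptprc (2.31 and 2.77 CPM), the gene of CD45, nor Xist (1.29 and 1.89 CPM), and are called Xist-low Ptprc-low cells. Of their 13 tumour clusters, 5 had the carcinoma-like list as their best-scoring one, and 4 others carried enough matrix genes to score as fibroblast. Of those 5, only the cluster led by Krt8 and Glod5 reached the score of 1.5 needed for the carcinoma-like name, at 2.49. The rest scored 0.805 to 0.870. Keratin was low in the class as a whole, with Krt18 at 41.8 CPM with NanoCa and 25.2 CPM with mock, while Rhox5, also on that list, stood at 338 and 340.2 CPM. TDLN held 326 and 1021 such cells, with medians of 58701 and 54514 UMIs per cell.

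CPM levels give a gene's UMIs per 1000000 UMIs of all cells of a class together, with an exact Poisson 95% interval. Ratios are on the log2 scale with an exact conditional binomial 95% interval. A ratio was called where the gene had at least 50 UMIs over both libraries, the CPM differed at least 1.5-fold and the interval excluded 0, in classes with 100 or more cells in both libraries. With 1 library per group these intervals hold counting error alone, and no call speaks for mice that were not sampled.

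The 5 genes lie within 1 stretch of mouse chromosome 15. GENCODE vM21 on GRCm38, matched by gene identifier because the files name no build, places Ly6d (ENSMUSG00000034634) at chr15:74762056-74763620 on the minus strand and Ly6e (ENSMUSG00000022587) at chr15:74955051-74959905 on the plus strand. Ly6a (ENSMUSG00000075602) follows at chr15:74994877-74998031, Ly6c1 (ENSMUSG00000079018) at chr15:75044018-75048830 and Ly6c2 (ENSMUSG00000022584) at chr15:75108158-75111970, these 3 on the minus strand. Ly6c1 and Ly6c2 both encode Ly-6C and are near-identical in coding sequence, which limits how well reads of that sequence can be assigned to 1 of them. Their coding sequences of 393 bases differ at 9 positions and are 97.7% identical. Within the coding sequence, the last 150 bases are nearest the counted 3' end. The annotated genes run on past them, to 75044018 and 75108158, through bases not shown. These last 150 coding bases differ at 3 positions, shown in capitals.
Ly6c1 coding: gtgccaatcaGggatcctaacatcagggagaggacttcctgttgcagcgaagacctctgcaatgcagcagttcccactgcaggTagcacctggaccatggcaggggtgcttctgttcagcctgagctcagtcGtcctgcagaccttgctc
Ly6c2 coding: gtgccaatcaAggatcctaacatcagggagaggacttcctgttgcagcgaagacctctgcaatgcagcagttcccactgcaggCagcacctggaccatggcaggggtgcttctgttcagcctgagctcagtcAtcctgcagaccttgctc
The Ly6c1 stretch is chr15:75045405-75045554 and the Ly6c2 stretch chr15:75108546-75108695, both on the minus strand of GRCm38 and read in the direction of transcription. Of the distinct 98-base windows in the last 500 transcript bases, 11.5% of those of Ly6c1 and 17.2% of those of Ly6c2 also occurred in a transcript of another gene, against 0% for Ly6a, Ly6e and Ly6d. Of the 188 shared windows of Ly6c1, 167 occurred in Ly6c2 and 21 in a Ly6a transcript, and all 118 of Ly6c2 occurred in Ly6c1. The split between Ly6c1 and Ly6c2 is therefore uncertain for part of the reads, and a small part of Ly6c1 reads could also match Ly6a.

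Upstream the 2 genes differ much more, which is why their promoters are shown. Over 229 aligned columns they were 73.4% identical, with 47 mismatches and 14 gap columns; capitals mark bases that differ or stand opposite a gap.
Ly6c1 promoter: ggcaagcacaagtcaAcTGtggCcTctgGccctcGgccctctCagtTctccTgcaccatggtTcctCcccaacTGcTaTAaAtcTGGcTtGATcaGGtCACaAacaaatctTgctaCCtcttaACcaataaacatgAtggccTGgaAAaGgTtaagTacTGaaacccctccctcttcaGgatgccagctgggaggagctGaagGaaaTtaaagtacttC
Ly6c2 promoter: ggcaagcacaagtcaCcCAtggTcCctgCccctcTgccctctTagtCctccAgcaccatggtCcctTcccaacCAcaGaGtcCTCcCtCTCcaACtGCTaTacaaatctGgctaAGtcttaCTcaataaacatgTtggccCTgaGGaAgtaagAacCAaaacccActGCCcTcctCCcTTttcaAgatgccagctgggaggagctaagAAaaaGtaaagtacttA
These are chr15:75048838-75049056, positions -219 to -1 from the annotated start of Ly6c1, and chr15:75111997-75112221, positions -250 to -26 from that of Ly6c2, both from RefSeq on GRCm38.p6, minus strand. The PU.1 core GAGGAAGT, bound by a myeloid transcription factor, was searched on both strands. It occurred at -108 and +27 in this Ly6c2 entry (-142 and -8 from the other listed start) and not in this Ly6c1 entry, and in 3.20% of all 32851 promoters of that length. The table lists 2 starts for each gene, and the other Ly6c1 entry holds that core at -127. TATAAA stood at -143 in the Ly6c1 entry and in 13.6% of all promoters. Neither the interferon-gamma-activated site TTCNNNGAA (8.30% of promoters) nor the interferon-stimulated response core (GAAA, any 2 bases, GAAA, 3.44%) was found in any of the 4 entries. Promoters of Ly6a, Ly6e and Ly6d were not used here.

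**Figure D1:**
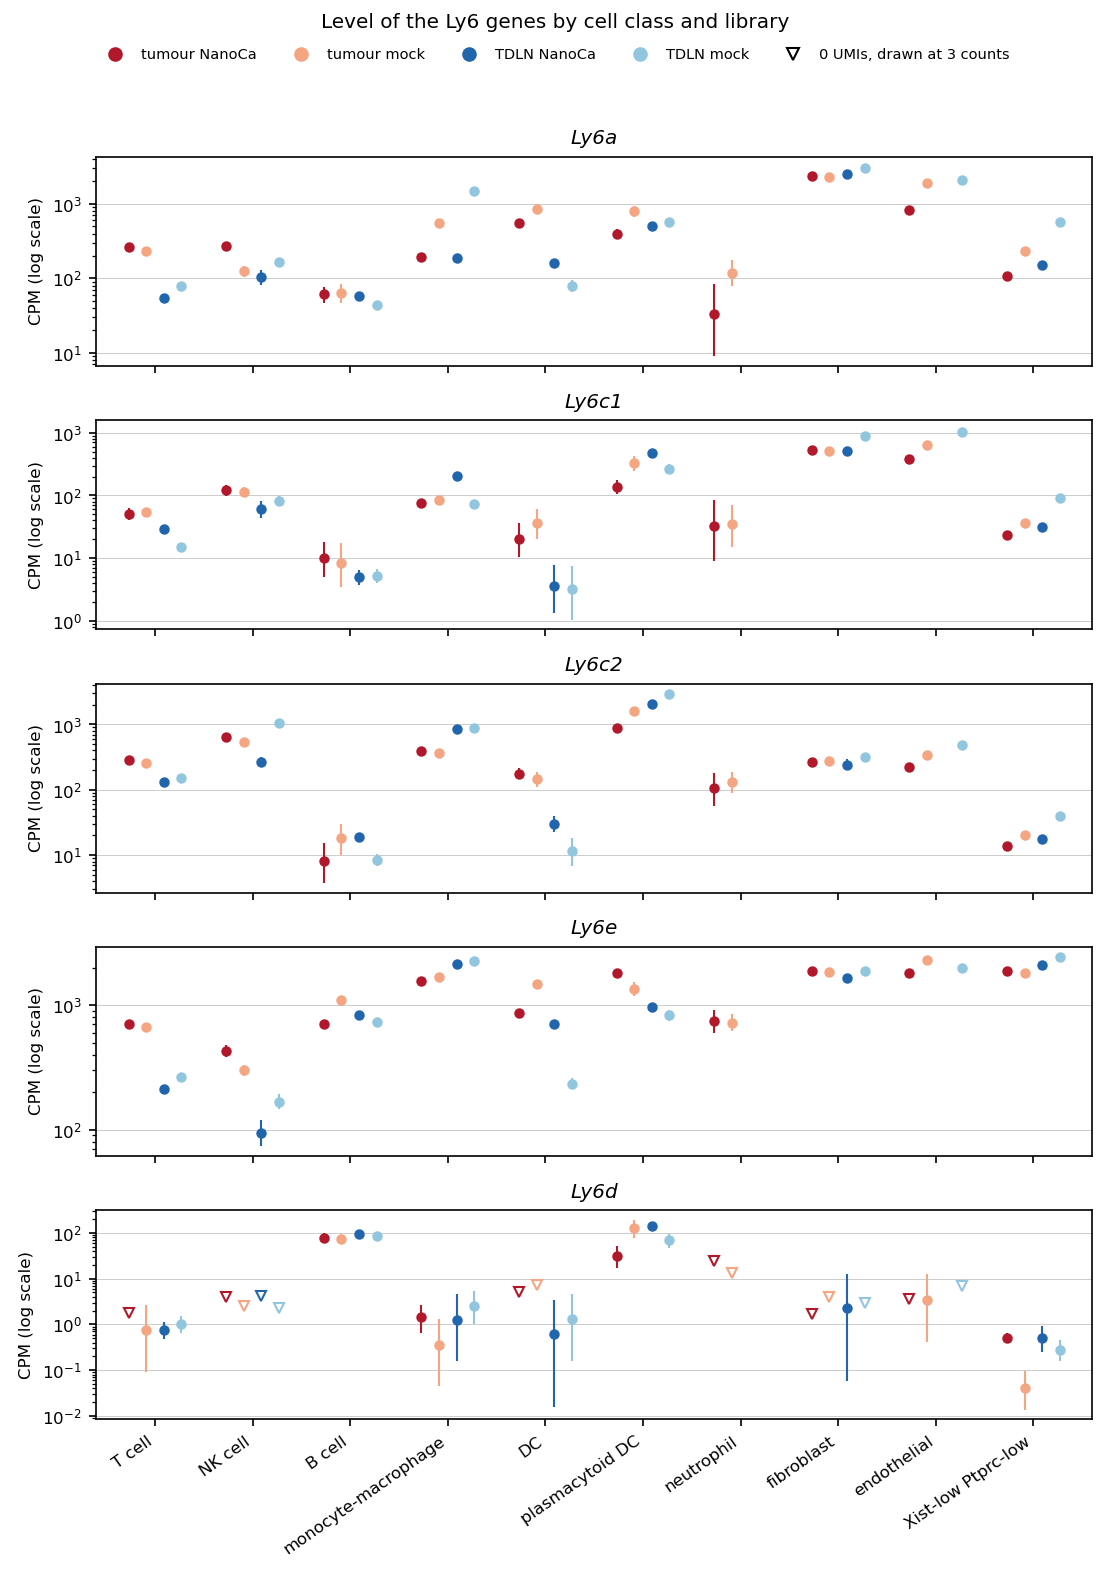
Level of each Ly6 gene (CPM, log scale) in 10 cell classes of the 4 libraries, with exact Poisson 95% intervals; open triangles are libraries with 0 UMIs, drawn at 3 counts, and neutrophils and endothelial cells lack points where too few cells were present. Ly6a peaks in fibroblasts and endothelial cells, Ly6c2 in plasmacytoid DC, Ly6d in B cells and plasmacytoid DC, and Ly6e is broad.

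Ly6a was a stromal gene first. Fibroblasts, the matrix-making cells, held 2344 CPM (2274 to 2416) in tumour NanoCa and 2323 (2215 to 2436) in tumour mock, and 2545 (2399 to 2698) in TDLN NanoCa and 3082 (2975 to 3192) in TDLN mock. These were the highest class levels in each library, and the tumour pair had overlapping intervals. Endothelial cells, the lining of vessels, held 824 CPM (764 to 888) in tumour NanoCa, 1908 (1797 to 2023) in tumour mock and 2127 (1991 to 2269) in TDLN mock, and the 14 cells of TDLN NanoCa held 149 CPM. The NanoCa value was the lower one in both tissues, but with 86 and 61 cells in the tumour libraries and 14 and 55 in TDLN this class was below the size set for a call. After every cell was thinned to 1000 UMIs, so that depth was equal, 59.2% of NanoCa and 53.7% of mock tumour fibroblasts had a Ly6a UMI.

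Among immune classes of the tumour, Ly6a was highest in dendritic cells (DC, 555 CPM with NanoCa and 854 with mock) and in plasmacytoid DC, interferon-producing cells (397 and 797 CPM). Leaving neutrophils aside, it was lowest in B cells, at 60.8 CPM (47.2 to 77.3) with NanoCa and 63.4 (47.3 to 83.1) with mock. RNA free in the suspension bears on such low values: the share of a class sum that came from it, judged by Krt8, Krt18 and Rhox5, was 28.1% and 38.5% in tumour B cells, which would alone bring 41.7 and 103 CPM of Ly6a. The B-cell level in tumour mock is thus no higher than free RNA would give. Tumour neutrophils, with 70.4% and 60.2% free RNA by the same measure and 32.9 and 119.7 CPM of Ly6a, are likewise at or below the 105 and 161 CPM that free RNA would bring.

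In macrophages and monocytes Ly6a was lower with NanoCa in both tissues. In the tumour it stood at 193 CPM (183 to 205) with NanoCa and 552 (533 to 572) with mock, a log2 ratio of -1.51 (-1.61 to -1.42). In TDLN it stood at 189 CPM (168 to 212) with NanoCa and 1489.7 (1444 to 1536) with mock, a log2 ratio of -2.98 (-3.15 to -2.81). Free RNA would bring 22.8 and 31.1 CPM to these cells in the tumour and 15.8 and 50.8 CPM in TDLN, far below the levels seen. Of the 4 members compared, 1 was called in tumour monocyte-macrophages, where 10.7% of all compared genes were called, and 2 were called in TDLN, where 13.5% were. After thinning to 1000 UMIs, 13.3% of NanoCa and 22.2% of mock tumour cells of this class had a Ly6a UMI, and 8.93% and 41.6% in TDLN (unthinned 27.2% and 45.0%, and 26.8% and 53.5%).

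Lower Ly6a was seen in each named subset of these cells. In tumour macrophages that make C1q, the start of the complement cascade, Ly6a stood at 201 CPM with NanoCa and 576 with mock (log2 -1.52, -1.66 to -1.39, background 10.9%). In tumour monocytes low in C1q it stood at 395 and 962 CPM (log2 -1.28, -1.46 to -1.11, background 10.4%). In TDLN, where 63 and 106 C1q macrophages and 32 and 69 monocytes are too few for a call, the levels were 159.8 with NanoCa and 1216 with mock, and 295 with NanoCa and 1773 with mock. A TDLN cluster led by the mast cell genes Cma1 and Mcpt4, 35 and 76 cells, is also counted in this class. Both named subsets were thus lower with NanoCa in both tissues. The C1q macrophages of 1 tumour cluster led by the class II genes H2-Ab1 and H2-Aa and by Cxcl9, a chemokine induced by interferon-gamma, had the most Ly6a, 488 CPM with NanoCa and 1468 with mock. A cluster led by Lyve1, Cd163 and Cd209f, genes of tissue-resident macrophages, had 76.4 and 355 CPM. One tumour monocyte cluster led by Hp and Napsa was an exception, with 39.2 CPM with NanoCa and 38.3 with mock. A tumour cluster of the class outside the named subsets, led by S100a9 and Mmp12, was another. It held 54.0 CPM with NanoCa and 47.7 with mock in 48 and 35 cells, with overlapping intervals.

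Xist-low Ptprc-low cells had less Ly6a with NanoCa as well. In the tumour the level was 109 CPM (108 to 111) with NanoCa and 234 (231 to 236) with mock, a log2 ratio of -1.10 (-1.12 to -1.07). In TDLN it was 150.5 CPM (145 to 156) with NanoCa and 573 (567 to 579) with mock, a log2 ratio of -1.93 (-1.98 to -1.87). Of the 5 members compared in the tumour 3 were called, against a background of 9.65%, and of 4 compared in TDLN 3 were called, against 13.8%. An alternative chosen after seeing the data kept only the 5 tumour clusters with the carcinoma-like list as best-scoring one, most of them below the naming score. In their 4250 and 2488 cells the log2 ratio of Ly6a was -1.13. Its level was lower with NanoCa in 12 of the 13 tumour clusters, and the remaining one stood at 61.7 CPM with NanoCa and 57.6 with mock.

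The clusters of these cells ranged from 21.5 to 404 CPM of Ly6a with NanoCa and from 40.7 to 716 with mock. The cluster with most Ly6a was led by Apod, Dcn and Ogn, matrix genes of fibroblasts. Over both libraries it held 1.65 CPM of Xist and 316 of Rhox5, against 223 and 69.1 CPM in the tumour fibroblast class. The part of fibroblasts in its Ly6a level was not tested. Clusters with more Ly6a also had more of a list of 23 genes induced by interferon-gamma: over the 13 clusters Pearson's correlation of log2 CPM was 0.78 with NanoCa and 0.77 with mock. For a list of 28 genes induced by type I interferon it was 0.93 and 0.95. Ly6e had lower correlations, -0.077 with NanoCa and 0.11 with mock for the interferon-gamma list and 0.38 and 0.50 for the type I interferon list. By Spearman's correlation Ly6a and the interferon-gamma list were less closely related, at 0.58 with NanoCa and 0.63 with mock. The clusters share a library and differ in depth, so these correlations describe the clusters and carry no test. Single cells showed the same split at equal depth: in the tumour 4.83% of NanoCa and 7.92% of mock cells without a UMI of the interferon-gamma list had a Ly6a UMI, against 17.0% and 24.4% of those with 1 or more. In TDLN the shares were 6.25% with NanoCa and 11.2% with mock without the list, and 25.4% and 38.3% with it.

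**Figure D2:**
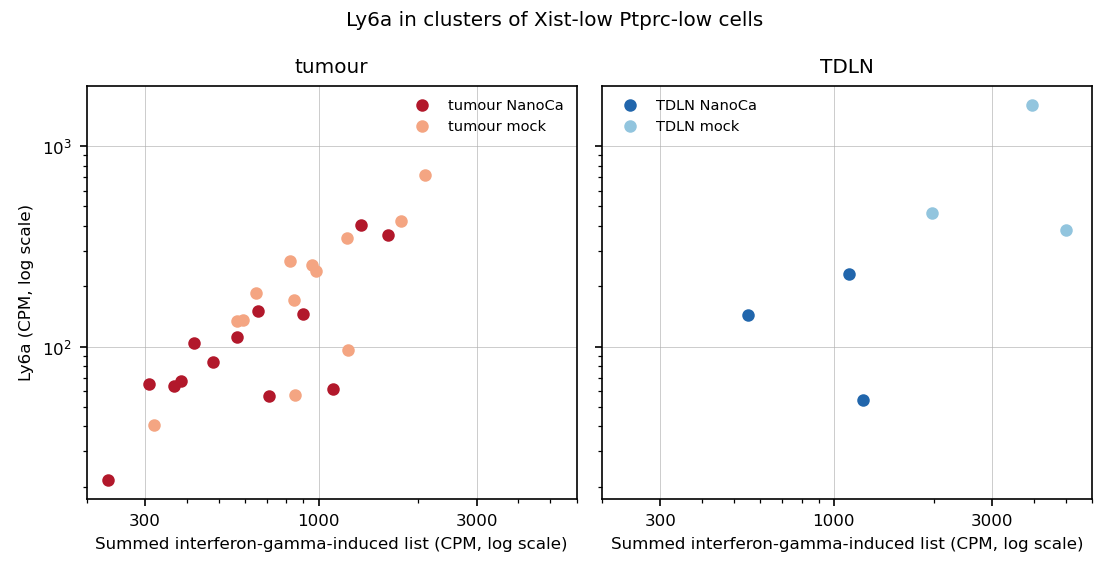
Ly6a level of each cluster of Xist-low Ptprc-low cells (CPM, log scale) against the summed level of the interferon-gamma-induced list (CPM, log scale), with 1 point per cluster and library, 13 clusters in the tumour and 3 in TDLN. The mock point of a cluster lies above and to the right of its NanoCa point in 12 of 13 tumour clusters and in all 3 of TDLN, with Ly6a between 21.5 and 404 CPM (NanoCa) and between 40.7 and 716 CPM (mock) in the tumour.

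The interferon-gamma-induced genes themselves moved the same way in the cells where Ly6a was lower. In tumour Xist-low Ptprc-low cells 16 of 22 compared list genes were called lower and 0 higher, with a median log2 ratio of -0.96 (all genes 0.011). Gbp2, an interferon-induced GTPase, stood at 73.5 CPM with NanoCa and 180.1 with mock, and Psmb9, an immunoproteasome subunit, at 61.7 and 118 CPM. In the same class of TDLN 21 of 23 were lower (median -1.92, all genes 0.041), with Gbp2 at 89.4 CPM with NanoCa and 542 with mock. In TDLN monocyte-macrophages 16 of 21 were lower (median -1.09, all genes 0.058), and Cxcl9 stood at 152 CPM with NanoCa and 667 with mock. In tumour monocyte-macrophages, where the Ly6a ratio was -1.51, only 5 of 21 were lower (median -0.37, all genes 0.11). Of the list of interferon receptors and JAK-STAT genes, 2 of 15 were higher and 2 lower in tumour Xist-low Ptprc-low cells, and 0 of 14 were higher and 5 lower in those of TDLN. One of them, the transcription factor Irf1, was called lower in all 4 of these settings, for example at 90.4 CPM with NanoCa and 197 with mock in tumour monocyte-macrophages. Ifng, the gene of interferon-gamma, stood at 5.87 CPM with NanoCa and 14.5 with mock in TDLN T cells (log2 -1.31). Whether these levels set that of Ly6a was not tested.

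Between treatments the list of genes induced by type I interferon moved differently. In TDLN monocyte-macrophages, where Ly6a was 7.87-fold lower with NanoCa, 8 of its 28 genes were called higher and 0 lower, among them Irf7 at 827 CPM with NanoCa and 532 with mock. In tumour monocyte-macrophages 0 of 28 were higher and 2 lower, and in tumour Xist-low Ptprc-low cells 0 were higher and 1, the nucleic-acid sensor Zbp1, was lower. In TDLN B cells 17 of 25 were higher, while Ly6a at 58.0 CPM with NanoCa and 43.3 with mock (10.6 and 48.7 CPM from free RNA) was not called. The GPI anchor genes that all 5 proteins need were mostly level: of 27 compared, 0 were called in tumour Xist-low Ptprc-low cells and 0 in TDLN T cells.

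**Figure D3:**
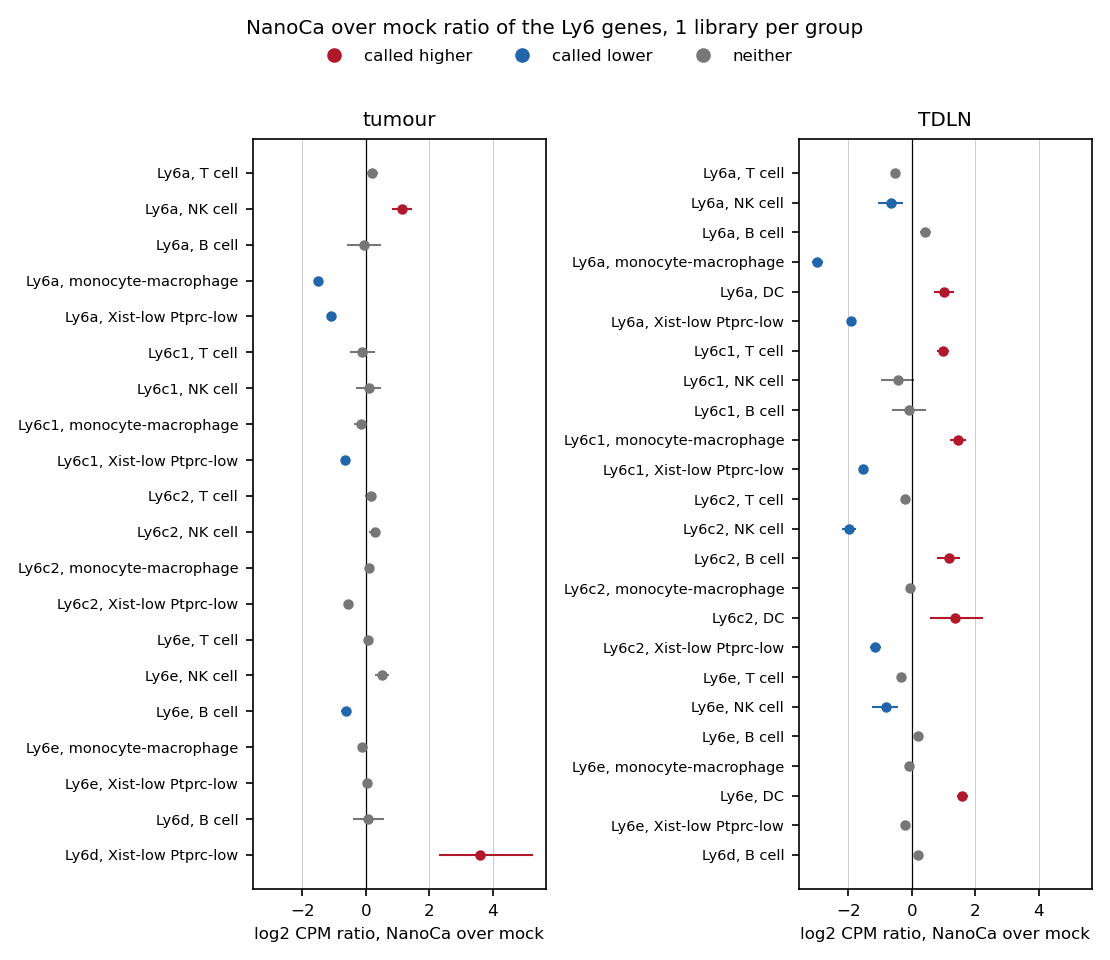
Log2 ratio of CPM, NanoCa over mock, of each Ly6 gene and class compared in the tumour (left, 20 pairs) and in TDLN (right, 24 pairs), with exact conditional binomial 95% intervals that hold counting error alone. Red points were called higher, blue ones lower and grey ones neither: 2, 4 and 14 in the tumour, and 6, 7 and 11 in TDLN.

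T cells as a class gave no call for Ly6a between treatments, although some of their subsets did. The tumour level was 268 CPM (244 to 293) with NanoCa and 233 (215 to 252) with mock (log2 0.20), and the TDLN level 54.7 (52.1 to 57.4) and 78.5 (75.1 to 82.1) (log2 -0.52), neither of them called. In tumour T cells 0 of 4 members were called (background 9.02%), and in TDLN T cells 1 of 4 (9.99%). The means hid a steep order of subsets. Tumour regulatory T cells, the Foxp3-expressing cells that restrain immune responses, held 1562 CPM (1392 to 1746) with NanoCa and 1140.0 (985 to 1313) with mock, in 61 and 53 cells. Tumour CD8 T cells high in Ccl5 held 197 CPM with NanoCa and 246 with mock, those low in Ccl5 77.5 and 91.7 CPM, and conventional CD4 T cells 67.3 (44.0 to 98.7) and 146 (123 to 172) CPM. The last 2 subsets had overlapping intervals with NanoCa. The CD8 T cells high in Ccl5 pool a pair of clusters in unequal parts, and Ly6a was lower with NanoCa in both: 402 CPM (306 to 520.2) with NanoCa and 787 (662 to 928) with mock in 52 and 49 cells, and 33.1 (12.1 to 72.0) and 116 (92.6 to 143) in 32 and 117 cells. The value of 33.1 CPM came from 6 UMIs. Free RNA would bring 25.2 CPM with NanoCa and 39.5 with mock to this subset, and 39.7 and 69.9 CPM to the CD8 T cells low in Ccl5. T cells in clusters that no list named, 318 and 148 cells, held 51.8 and 117 CPM (log2 -1.18, called lower, background 8.46%), where free RNA would bring 52.1 and 80.7 CPM. The conventional CD4 ratio was called lower (log2 -1.12, -1.78 to -0.50, background 12.7%), but free RNA would bring 47.8 CPM with NanoCa and 74.5 with mock to these cells, and the lower limit of the NanoCa value reaches that level. With free RNA subtracted, a treatment of the subsets added after seeing the data, the ratio was -1.79, still called. The regulatory T cells were far above all the others in both libraries, and 58.3% of them with NanoCa and 47.2% with mock had a Ly6a UMI at 1000 UMIs, against 4.82% and 10.2% of conventional CD4 T cells.

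Regulatory T cells of the tumour also stood apart from those of the node. TDLN regulatory T cells held 145 CPM (131 to 160.2) with NanoCa and 253 (231 to 276) with mock (log2 -0.80, -0.99 to -0.61, background 9.03%). Free RNA would bring 8.99 and 58.6 CPM, and with it subtracted the levels were 149 and 226 CPM (log2 -0.60), 1.52-fold and just past the size set for a call. The tumour cells were 10.8-fold higher with NanoCa and 4.51-fold higher with mock, although 61 and 53 tumour cells are under the size set for a call. Within the node, a cluster led by Penk, Tnfrsf9 and Ccr8, genes of activated regulatory T cells, had 211 CPM with NanoCa and 404 with mock. The cluster that lacked those leading genes had 62.5 and 75.4 CPM. The single regulatory cluster of the tumour was also led by Penk and had Ccr8 among its leading genes.

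Conventional CD4 T cells of TDLN had 12.0 CPM (10.3 to 13.9) with NanoCa and 42.1 (38.5 to 45.9) with mock (log2 -1.81, -2.06 to -1.57, background 9.58%). Free RNA would bring 11.5 and 60.5 CPM, so these values are at background and their difference is not read as expression. CD8 T cells low in Ccl5, the naive-like ones, held 101 and 89.2 CPM, above the 9.73 and 52.0 CPM of free RNA, and the ratio, not called as it stands, was called higher with this subtracted (log2 1.25). The CD8 T cells of TDLN high in Ccl5 had 18.3 CPM (10.2 to 30.1) with NanoCa and 77.7 (61.5 to 96.8) with mock (log2 -2.09, -2.99 to -1.28, background 15.2%). For that subset free RNA would bring 2.74 and 72.9 CPM, so the mock value is at background and the NanoCa value above it. TDLN T cells as a whole would receive 10.4 and 56.3 CPM, and with this subtracted the log2 ratio of Ly6a became 0.92, the opposite direction. In TDLN mock the free-RNA estimate was larger than the whole level seen in conventional CD4 T cells, 60.5 against 42.1 CPM. Subtraction there can remove too much and so raise the NanoCa over mock ratio. The subtracted ratios of 0.92 and 1.25 carry this limit, and its size was not tested.

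NK cells, innate killers, went in opposite directions in the tissues. Tumour NK cells held 272 CPM (236 to 312) of Ly6a with NanoCa and 124 (104 to 145) with mock, a log2 ratio of 1.14 (0.83 to 1.46). TDLN NK cells held 103 CPM (80.9 to 129.8) with NanoCa and 164 (143 to 188) with mock, a log2 ratio of -0.67 (-1.08 to -0.28). In tumour NK cells 1 of 4 members was called (background 7.67%) and in TDLN NK cells 3 of 4 (13.0%). With doublets kept, neither Ly6a ratio was called, and that of the tumour was 0.50. The TDLN call was also lost when the 12.7 and 55.3 CPM that free RNA would bring were subtracted. In TDLN DC Ly6a was 161 CPM (142 to 182) with NanoCa and 79.9 (66.4 to 95.3) with mock (log2 1.01, 0.70 to 1.33). Here 3 of 3 members were called, all of them higher, against a background of 12.5% called in either direction, but the Ly6a and Ly6c2 ratios became -0.91 and -0.69 with the stricter cell filter. The Ly6a call was also lost with doublets kept (log2 0.44) and with both libraries given the same cluster makeup (log2 0.33). Conventional DC held 347 CPM of Ly6a with NanoCa and 292 with mock in 31 and 20 cells, and mature DC 41.8 and 21.7 CPM in 105 and 126 cells. The strict filter needed at least 500 genes and at most 5% mitochondrial UMIs.

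**Figure D4:**
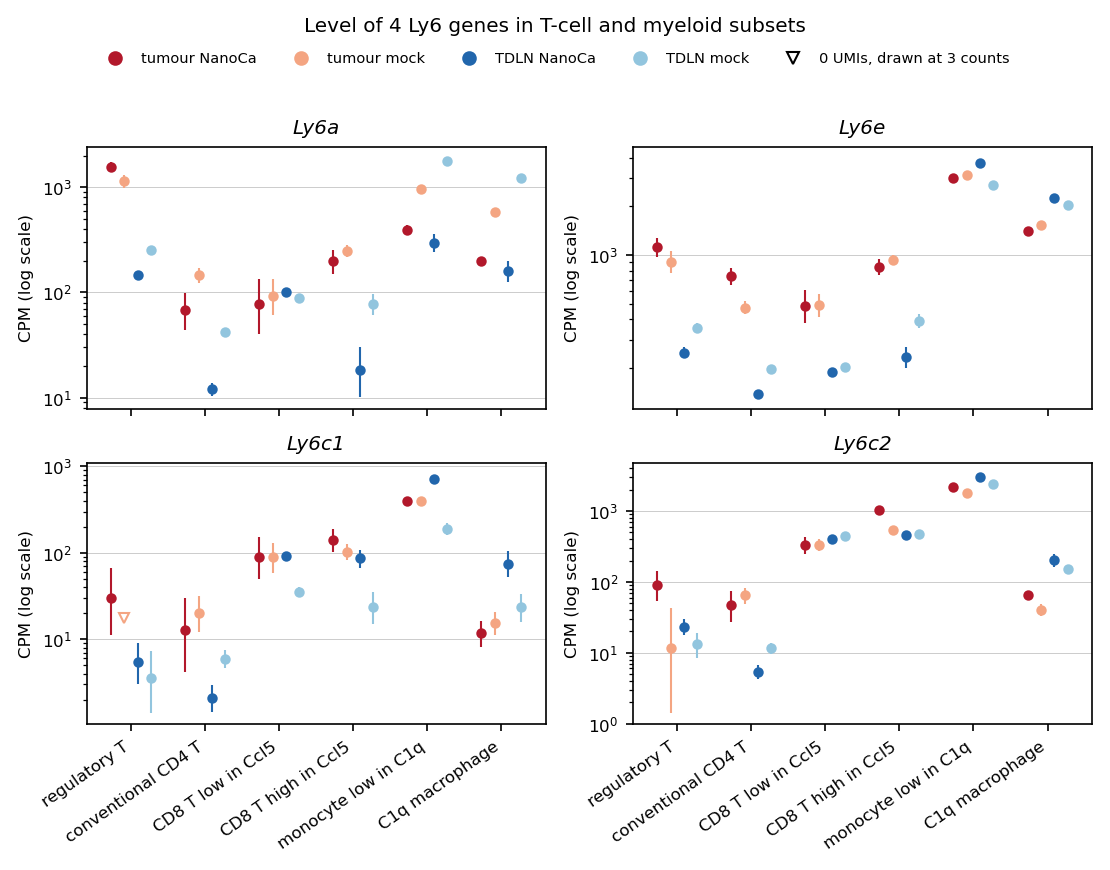
Level of Ly6a, Ly6e, Ly6c1 and Ly6c2 (CPM, log scale) in 4 T-cell and 2 myeloid subsets of the 4 libraries, with exact Poisson 95% intervals. Tumour regulatory T cells (1562 and 1140.0 CPM with NanoCa and mock) lead the T cells in Ly6a, while monocytes low in C1q and CD8 T cells carry Ly6c2.

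Ly6c2 and Ly6c1, the Ly-6C genes, marked monocytes, plasmacytoid DC, NK cells and CD8 T cells. Monocytes low in C1q held 2179 CPM (2088 to 2272) of Ly6c2 in tumour NanoCa and 1820.1 (1736 to 1907) in tumour mock, and 3076 (2897 to 3263) in TDLN NanoCa and 2402 (2298 to 2509) in TDLN mock. C1q macrophages held 64.4 and 40.3 CPM in the tumour (log2 0.68, called higher) and 202 and 152 in TDLN. In both tissues and treatments Ly6c2 was thus low in the macrophages and high in the monocytes. Within the compared classes neither tissue gave a call for Ly6c2 in monocyte-macrophages (log2 0.088 in the tumour, -0.059 in TDLN), although Ly6a of the same cells was lower with NanoCa. Among tumour monocytes with a Ly6a UMI at 1000 UMIs, 74.3% with NanoCa and 67.3% with mock also had a Ly6c2 UMI, against 54.3% and 55.1% of all tumour monocytes. RNA of both antigens was thus found in the same cells.

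Plasmacytoid DC had 871 CPM (790.2 to 958) of Ly6c2 in tumour NanoCa and 1581 (1395 to 1786) in tumour mock, and 2059 (1952 to 2169.7) and 2876 (2732 to 3025) in TDLN. All 4 groups had under 100 such cells, and the tumour NanoCa cells had a free-RNA share of 64.1%, so no call was made. In TDLN NK cells Ly6c2 was 271 CPM (234 to 313) with NanoCa and 1064 (1009 to 1122) with mock, a log2 ratio of -1.97 (-2.20 to -1.75). This call held under all 10 alternatives run for it. Tumour NK cells held 652 CPM (596 to 712) with NanoCa and 538 (497 to 581) with mock, not called. The ratio of tumour to TDLN NK cells was therefore 1.26 with NanoCa and -0.99 with mock.

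In T cells of TDLN Ly6c2 was mainly a CD8 gene. TDLN CD8 T cells low in Ccl5 held 406 CPM (392 to 420.3) with NanoCa and 446 (429.9 to 462) with mock, and those high in Ccl5 465 and 482 CPM. Conventional CD4 T cells held 5.35 and 11.5 CPM, below the 12.3 and 18.0 CPM that free RNA would bring. The CD8 levels of TDLN were thus far above those of its CD4 cells, and neither CD8 subset differed between treatments by 1.5-fold. In the tumour the CD8 T cells high in Ccl5 split into a pair of clusters that shared the name and differed in Ly6c2. A cluster led by Klrc1, Xcl1 and Klrk1, genes shared with NK cells, had 2269 CPM with NanoCa and 2131 with mock in 52 and 49 cells. The cluster led by Nrgn, Gzme and Gzmf, the last 2 being granzymes of cytotoxic granules, had 38.6 and 160.2 CPM in 32 and 117 cells. Because the second cluster made up more of the mock cells, the subset as a whole stood at 1026 CPM with NanoCa and 543 with mock. Tumour conventional CD4 T cells held 46.6 CPM with NanoCa and 64.5 with mock, above the 14.5 and 13.9 CPM of free RNA. One of their clusters, led by Penk and Tnfsf8, had 47.9 CPM with NanoCa and 224 with mock. In the tumour the Nrgn-led CD8 cluster was thus not above all CD4 T cells.

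Ly6c1 was found in the same immune classes as Ly6c2. In TDLN it was higher with NanoCa in T cells, at 29.4 CPM (27.5 to 31.4) against 14.9 (13.5 to 16.6) with mock (log2 0.98, 0.80 to 1.16), a call that was lost with cells thinned to 1000 UMIs (log2 0.46). In TDLN monocyte-macrophages it was 202 CPM (179.9 to 225) with NanoCa and 73.6 (63.8 to 84.5) with mock (log2 1.45, 1.19 to 1.72). In CD8 T cells low in Ccl5, where most Ly6c1 of T cells lay, it was 90.9 and 35.5 CPM (log2 1.36, background 7.48%). Ly6c2 of the same 3 settings was not called, so the pair of near-identical genes moved apart. In the tumour Ly6c1 of T cells (50.5 and 54.3 CPM), NK cells (120.3 and 113) and monocyte-macrophages (75.9 and 85.4) was not called.

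The balance of the pair shows this more directly, since both genes are counted in the same cells. As a percentage of the UMIs of both, Ly6c1 made up 18.2% (17.1 to 19.3) in TDLN NanoCa T cells and 8.84% (7.99 to 9.74) in TDLN mock T cells, with exact Clopper-Pearson 95% intervals. NK cells (18.3% and 7.20%), monocyte-macrophages (19.4% and 7.78%) and plasmacytoid DC (18.8% and 8.44%) of TDLN showed nearly the same values. In the tumour these classes lay between 13.6% and 16.1% with NanoCa and between 17.2% and 18.7% with mock. In these 4 classes the TDLN mock library had the lowest share of the 4 libraries. B cells, DC and conventional CD4 T cells, with few UMIs of the pair, did not follow that order. TDLN B cells stood at 20.9% (16.3 to 26.1) with NanoCa and 38.5% (30.8 to 46.6) with mock, TDLN DC at 10.7% and 21.7%, and TDLN conventional CD4 T cells at 28.1% and 34.1%, the DC and CD4 intervals overlapping. Tumour B cells, at 55.0% and 31.8%, had no more than 15 UMIs of either gene. Whether reads of this library were split differently between the pair, given the shared sequence shown above, was not tested.

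**Figure D5:**
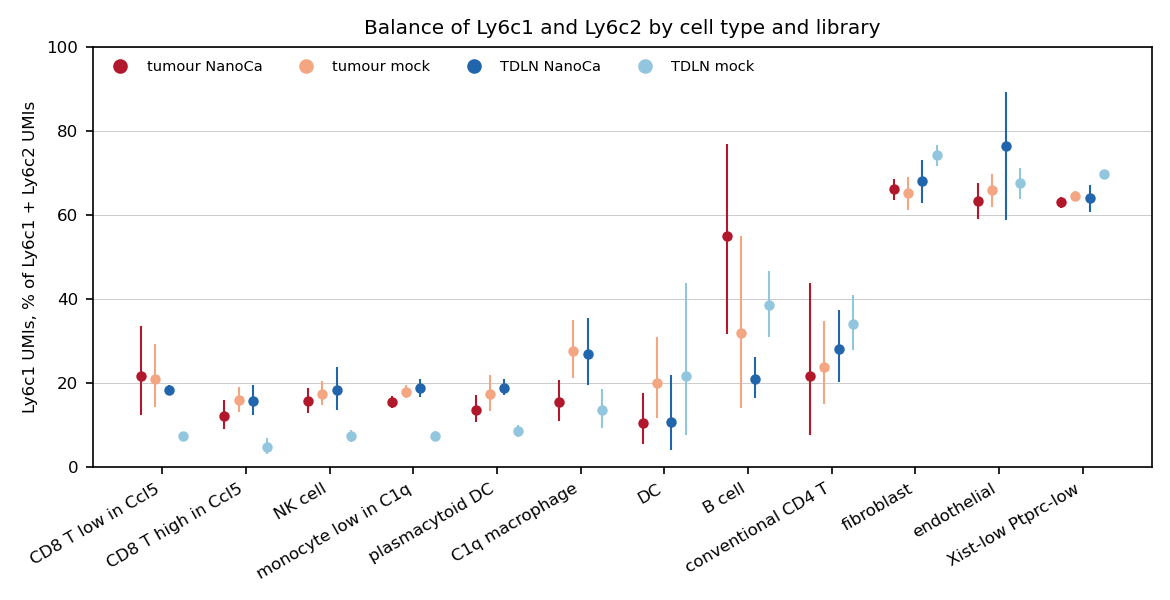
Share of Ly6c1 in the UMIs of Ly6c1 and Ly6c2 together (%), in 12 cell types of the 4 libraries, with exact Clopper-Pearson 95% intervals. CD8 T cells, NK cells, monocytes and plasmacytoid DC lie between 4.67% and 21.5%, with TDLN mock lowest in each, DC, B cells, conventional CD4 T cells and C1q macrophages between 10.4% and 55.0%, and fibroblasts, endothelial and Xist-low Ptprc-low cells lie between 63.0% and 76.5% in all 4 libraries.

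Stromal cells had the opposite balance. Ly6c1 made up 66.1% of the pair in fibroblasts of tumour NanoCa, 65.1% in tumour mock, 68.1% in TDLN NanoCa and 74.2% in TDLN mock. Endothelial cells ranged from 63.4% to 76.5% over the 4 libraries, the highest value resting on 26 and 8 UMIs of Ly6c1 and Ly6c2 in 14 cells. In Xist-low Ptprc-low cells the share was 63.0% and 64.5% in the tumour and 64.0% and 69.7% in TDLN. The TDLN mock library was not low here. Fibroblasts held 526 and 511 CPM of Ly6c1 in the tumour and 519.9 and 901 in TDLN, and endothelial cells 386 and 647 CPM in the tumour. In Xist-low Ptprc-low cells Ly6c1 was lower with NanoCa, at 23.3 CPM (22.5 to 24.1) against 36.6 (35.6 to 37.7) in the tumour (log2 -0.65, -0.72 to -0.59). In TDLN it was 31.4 CPM (29.0 to 34.0) with NanoCa and 90.9 (88.4 to 93.5) with mock (log2 -1.53, -1.66 to -1.41). Ly6c2 of this class was 13.7 and 20.1 CPM in the tumour (log2 -0.56, 1.47-fold, not called) and 17.7 and 39.5 CPM in TDLN (log2 -1.16, called). Ly6a, Ly6c1 and Ly6c2 were thus all lower with NanoCa in these cells.

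Low Ly6c2 values in B cells and DC of TDLN were called higher. B cells had 18.9 CPM (16.5 to 21.5) with NanoCa and 8.47 (6.86 to 10.3) with mock (log2 1.16), 1 of 5 members called against a background of 12.1%. DC had 30.3 CPM with NanoCa and 11.7 with mock (log2 1.37) from 50 and 18 UMIs. Free RNA would bring 11.4 and 14.5 CPM to the B cells and 7.33 and 10.6 CPM to the DC. The mock values are therefore at background, and neither call held under the stricter cell filter.

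Ly6e, which encodes a GPI-anchored protein known to restrict the entry of coronaviruses and to promote that of some other viruses, was the broadest member. Xist-low Ptprc-low cells held 1880.0 CPM (1873 to 1887) in tumour NanoCa and 1821 (1813 to 1828) in tumour mock, and 2094 (2074 to 2115) and 2449 (2435 to 2462) in TDLN. At 1000 UMIs 74.1% and 70.6% of the tumour cells had a UMI. Monocytes low in C1q held 2985 and 3115 CPM in the tumour and 3738 and 2718 in TDLN. Fibroblasts stood at 1889.8 and 1835 CPM in the tumour. Stromal, myeloid and Xist-low Ptprc-low cells thus all carried Ly6e, and it was called in none of the Xist-low Ptprc-low or monocyte-macrophage comparisons, where Ly6a was lower with NanoCa.

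Ly6e was low in NK and T cells of the node. TDLN NK cells had 94.7 CPM (73.4 to 120.3) with NanoCa and 168 (147 to 192) with mock (log2 -0.83, -1.25 to -0.43). Free RNA would bring 106 and 207 CPM, so both values are at background. TDLN T cells had 210.3 CPM with NanoCa and 265 with mock (log2 -0.34, not called), against 86.3 and 211 CPM from free RNA, and with that subtracted the log2 ratio became 1.12. In conventional CD4 T cells of TDLN mock the estimate for Ly6e, 227 CPM, was above the 196 CPM seen. The subtraction can therefore remove too much from mock, and the value of 1.12 carries that limit. Cycling T cells of TDLN, a cluster led by Pclaf and Rrm2 with 72 and 80 cells, stood out with 810.4 and 730.1 CPM. Tumour T cells had 707 and 669 CPM, against 519.7 and 408 from free RNA, and tumour NK cells 428 and 299.7 CPM, against 279 and 269.9; neither pair was called. B cells held 839.6 and 731 CPM in TDLN, well above the 88.1 and 182 CPM of free RNA. In tumour B cells Ly6e was 702 CPM (653 to 753) with NanoCa and 1091 (1020.3 to 1164) with mock (log2 -0.64, -0.78 to -0.50), 1 of 3 members called against 11.5%. Free RNA would bring 512 CPM with NanoCa and 682 with mock to these tumour B cells, a large part of both levels. Of 10 alternatives run for that call 5 ended it, and subtraction of free RNA was not among those.

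In TDLN DC Ly6e was 703 CPM (664 to 745) with NanoCa and 234 (210.3 to 259) with mock (log2 1.59, 1.42 to 1.76), a call that held under all 10 alternatives. The DC clusters show where it lay. Conventional DC held 1707 and 842 CPM in 31 and 20 cells. Mature DC, the migratory state that expresses Ccr7, held 49.3 and 74.6 CPM in 105 and 126 cells. Ly6e was thus low in mature DC of both libraries, and of the 1161 and 360 Ly6e UMIs of the class 1111 and 265 came from the few conventional DC.

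Ly6d, a marker of B-lineage commitment in the marrow, was found mainly in B cells and plasmacytoid DC. B cells held 79.0 CPM (63.3 to 97.5) in tumour NanoCa and 75.5 (57.9 to 96.9) in tumour mock, and 95.9 (90.5 to 102) and 84.2 (79.0 to 89.7) in TDLN, none of them called. At 1000 UMIs 8.62% of NanoCa and 8.58% of mock TDLN B cells had a UMI, against 0.113% and 0.0995% of TDLN T cells, whose 0.758 and 1.01 CPM are below the 2.07 and 1.66 CPM of free RNA. Plasmacytoid DC held 30.8 and 128 CPM in the tumour and 139 and 68.7 in TDLN. NK cells had 0 UMIs in all 4 libraries, which allows up to 3.97 and 2.54 CPM in the tumour and 4.24 and 2.29 CPM in TDLN.

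Within B cells Ly6d varied more between clusters than between treatments. The TDLN cluster led by Fcer2a and Fcmr, genes of follicular B cells, had 131 CPM with NanoCa and 153 with mock. A cluster led by Rgs13 and Mzb1, known from germinal-centre and antibody-secreting cells, had 0 and 0.684 CPM in 101 and 148 cells. A further cluster of 120 and 216 cells had 4.89 and 6.09 CPM. In the tumour the B-cell cluster with most cells had 129 and 107 CPM, and another, of 68 and 32 cells, had 0 UMIs in both libraries. In both tissues Ly6d was thus carried by some B-cell clusters and near 0 in others. An unnamed TDLN cluster of 2 NanoCa and 12 mock cells, led by Ptn, Krt18 and Krt19, had 595 CPM over both libraries.

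In tumour Xist-low Ptprc-low cells Ly6d was near 0 and higher with NanoCa, at 0.503 CPM (0.390 to 0.639) from 67 UMIs against 0.0417 (0.0136 to 0.0974) from 5 UMIs with mock (log2 3.59, 2.30 to 5.26). Of these UMIs 57 came from 1 cluster of 496 NanoCa and 66 mock cells, the only one of the class with all 10 carcinoma-like markers enriched, where Ly6d stood at 4.22 CPM with NanoCa and at 0 UMIs with mock. Only 0.192% of NanoCa and 0.0685% of mock cells had a UMI, without thinning.

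Across tissues, T cells summed as a class had more of the Ly6 genes in the tumour than in the node. Ly6a was 4.89-fold higher with NanoCa (log2 2.29, 2.14 to 2.44) and 2.97-fold with mock (log2 1.57, 1.44 to 1.70), and Ly6e 3.36-fold and 2.52-fold. All 4 compared members were called higher in both treatments, where 32.0% (NanoCa) and 31.0% (mock) of all compared genes were called in either direction. The free-RNA share was also higher in tumour T cells, at 28.5% and 23.0% against 9.62% and 13.6%, and what it adds to these ratios beyond the values given above was not tested. The subsets did not all share this. In conventional CD4 T cells Ly6a was 5.61-fold higher in the tumour with NanoCa and 3.47-fold with mock. Their TDLN levels of 12.0 and 42.1 CPM were at background, as free RNA would bring 11.5 and 60.5 CPM. The tumour levels were 67.3 and 146 CPM, of which free RNA would bring 47.8 and 74.5 CPM. These folds therefore rest on a background level and do not measure a difference in expression. In CD8 T cells low in Ccl5 it stood at 77.5 CPM in the tumour and 101 in TDLN with NanoCa and at 91.7 and 89.2 with mock, with intervals of the ratio that hold 0, and Ly6c2 at 329 and 406 CPM with NanoCa and 333 and 446 with mock. In the unnamed T cells with NanoCa, Ly6a stood at 51.8 and 75.4 CPM and Ly6e at 523 and 543. In NK cells 4 of 4 members were higher in the tumour with NanoCa (background 30.9%), whereas with mock Ly6e was higher, Ly6c2 lower and the others not called (21.3%). The Ly6e calls of NK cells rest on background levels in TDLN, 94.7 and 168 CPM against 106 and 207 from free RNA. In the tumour Ly6e stood at 428 CPM with NanoCa, against 279 from free RNA, and at 299.7 with mock, against 269.9. In monocyte-macrophages Ly6a stood at 193 CPM in the tumour and 189 in TDLN with NanoCa (2 of 4 members called, background 19.3%), and at 552 and 1489.7 with mock (log2 -1.43, -1.50 to -1.36, also 2 of 4, 20.3%). Ly6c2 was lower in the tumour cells in both treatments (log2 -1.08 and -1.23). The Ly6a intervals of the tissues thus overlapped in these cells with NanoCa and not with mock. In DC with NanoCa 2 of 3 members, Ly6a (log2 1.78) and Ly6c2 (log2 2.54), were higher in the tumour (31.8%). In B cells Ly6c2 alone of 5 members was called, lower in the tumour with NanoCa (log2 -1.21, 23.9%) and higher with mock (log2 1.11, 21.1%), from 9 and 15 tumour UMIs. In Xist-low Ptprc-low cells 0 of 5 members were called between tissues with NanoCa (15.6%) and 3 of 4, all lower in the tumour, with mock (17.7%).

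The genes whose levels were most like those of the members were found over 25 class and library sums and 6273 genes, by Pearson's correlation of log2(CPM + 1). For Ly6a they were Rrbp1 (0.82), a ribosome-binding protein of the endoplasmic reticulum, C4b (0.77), a complement component, and Flot1 (0.77), a membrane-raft protein. For Ly6c1 they were Nucb1 (0.90), Xdh (0.89) and Pdia3 (0.89), and for Ly6c2 Lgals9 (0.90), Zbp1 (0.89) and Tln1 (0.88). For Ly6e they were Plxnb2 (0.91), Mrpl27 (0.90) and Gipc1 (0.89). For Ly6d they were the antibody genes Igkv10-96 (0.99) and Igkv12-44 (0.98) and the antibody joining chain Jchain (0.98), which set B cells apart from other classes. Within B cells Ly6d did not follow Jchain. Clusters with Jchain among their leading genes held 5.65 and 0.425 CPM of Ly6d in TDLN and 0 in the tumour. The TDLN cluster led by Fcer2a and Fcmr held 140.4 CPM over both libraries. These lists depend on the measure. With Spearman's correlation only Rrbp1 stayed among the 3 genes for Ly6a, Plxnb2 for Ly6e and Igkv10-96 for Ly6d. Nucb1 and Pdia3 stayed for Ly6c1, and Lgals9 and Tln1 for Ly6c2. Between members, Ly6c1 and Ly6c2 correlated at 0.76 and Ly6a and Ly6c1 at 0.68, while Ly6d ran against Ly6a (-0.50). The sums share libraries and cell types, so these values are descriptions.

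Of 34 other genes of the Ly6 and uPAR family in the files, 13 had at least 50 UMIs over all libraries and 4 had none. Plaur, the urokinase receptor, was highest in tumour mock neutrophils at 2752 CPM, and Gpihbp1, which carries lipoprotein lipase on capillaries, in TDLN mock endothelial cells at 1034 CPM. Ly6g, a neutrophil antigen gene, had only 32 UMIs in all and stood at 75.3 CPM in tumour mock neutrophils. Ly6i was highest in TDLN monocyte-macrophages, at 35.2 CPM with NanoCa and 77.9 with mock (log2 -1.15). Slurp1, a secreted family member, stood at 32.2 CPM with NanoCa and 114 with mock in TDLN Xist-low Ptprc-low cells (log2 -1.83). In tumour Xist-low Ptprc-low cells 1 of 7 compared family genes was called higher and 0 lower, with a median log2 ratio of 0.097 (all genes 0.011). Of all compared genes of that class 9.65% were called in either direction. Few calls among 7 genes are near that share, so the count says nothing particular about the family.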

How the data were processed

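The authors' deposited files hold raw UMI counts per gene and barcode, made from 10x 3' v2 libraries with Cell Ranger 7.1.0 per the file headers; the sources used here do not name the genome build. Libraries were grouped by their tissue and treatment labels, 1 per group, and share a batch date, so no count model or p-value was possible and no difference has a replicate check. Where nothing names separate mice, intervals cover counting error only.

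Barcodes under 200 genes or over 10% mitochondrial UMIs were dropped, predicted doublets (7.42% to 8.97% per library, Scrublet in scanpy 1.11.5, Python 3.11.15) were removed, and cells of each tissue were clustered on 2000 variable genes without Ly6, interferon, cycle or stress genes (30 components, 15 neighbours, Leiden resolution 1). Clusters were named from marker lists where at least 3 markers were enriched 1.5-fold. Between 2.65% and 5.51% of cells lay outside the named classes. Xist-low Ptprc-low clusters had both genes under 20% of the immune median, a rule made after seeing these data. Median UMIs per kept barcode were 12629 and 12246 in the tumour and 4238 and 4429 in TDLN (NanoCa and mock).

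Counts were summed per class and library and given as CPM. Shares of cells with a UMI were taken after thinning to 1000 UMIs. Free RNA was judged from Krt8, Krt18 and Rhox5 UMIs in each class relative to its library. Named genes were, by rule, the 5 members in every class, for each member the 3 genes most like it, and up to 4 called genes per list with the highest CPM in the class; the subcluster leading genes and the other family genes in the text were chosen after their values were seen. The members, lists and clusters named in the text were chosen with earlier results of these data known. Alternatives covered normalization (TMM in edgeR 4.0.16, size factors in DESeq2 1.42.0, R 4.3.3), the count minimum, cell filters, doublets, clustering, thinning and free RNA. The counting of calls was tested on simulated data.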

Additional observations from a re-analysis of the deposited data

Results flagged for a closer look

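Ly6a in NK cells went in opposite directions in the tissues, with a log2 ratio of NanoCa over mock of 1.14 in the tumour and -0.67 in TDLN. Ly6c2 in NK cells was higher in the tumour than in TDLN with NanoCa (log2 1.26) and lower with mock (log2 -0.99). Ly6c2 in B cells was lower in the tumour than in TDLN with NanoCa (log2 -1.21) and higher with mock (log2 1.11), at levels near those of free RNA. With 1 library per group none of these differences was tested.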

How the results depend on the processing

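Of 19 called pairs of member and class, 11 kept their call under every alternative run for them and 8 lost it under 1 or more of the 11 alternatives. TMM factors and median-of-ratios size factors changed no call. The minimum of 10 UMIs could change none, because every compared pair already had at least 50 UMIs. It is counted among the alternatives here and above but is no check of these calls. Kept under all were the lower Ly6a of monocyte-macrophages (log2 -1.62 to -1.26 in the tumour, -3.18 to -2.81 in TDLN) and of Xist-low Ptprc-low cells (-1.13 to -1.04 and -2.01 to -1.58). With cells thinned to 1000 UMIs 7 TDLN pairs were called, against 13 otherwise. Ratios reversed with the stricter cell filter for Ly6a (-0.91) and Ly6c2 (-0.69) in TDLN DC. They reversed with free RNA subtracted for Ly6a (0.92) and Ly6e (1.12) in TDLN T cells, neither of which had been called. In TDLN mock the free-RNA estimate exceeded the level seen in conventional CD4 T cells for Ly6a (60.5 against 42.1 CPM) and Ly6e (227 against 196 CPM). Subtracted ratios of TDLN can therefore be too high. In subsets, free RNA subtracted after seeing the data brought a call of higher Ly6a to TDLN CD8 T cells low in Ccl5 (1.25) and unnamed T cells (0.88). It left too few UMIs for a call in tumour unnamed T cells and in TDLN conventional CD4 T cells and CD8 T cells high in Ccl5. Calls also lost were Ly6a in TDLN DC with doublets kept (0.44) and the same cluster makeup (0.33), and, with the range over the alternatives, Ly6c2 in TDLN B cells (range 0.11 to 4.79), Ly6a in TDLN NK cells (-0.93 to -0.30), Ly6e in TDLN NK cells (-1.02 to -0.43) and in tumour B cells (-1.33 to -0.28), Ly6a in tumour NK cells (0.50 to 1.59) and Ly6c1 in TDLN T cells (0.46 to 2.21); the cause was not tested. In the 5 tumour clusters with the carcinoma-like list as best-scoring one, an alternative chosen after seeing the data, Ly6c2 was also called lower (-0.59). Without thinning, 98 of 125 shares of cells with a UMI moved beyond their interval, as depth differed. No paired analysis was possible because each group is 1 library, and for the same reason no library could be left out.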
